A study of Mus musculus with 20 samples.

Results

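The genes of vascular endothelial growth factor (VEGF) signalling were followed through 20 tumours of B16F10, a mouse melanoma line grown in immunocompetent C57BL/6 mice. They are 10 genes, chosen by symbol from the 32285 genes of the deposited count and TPM tables: the ligands Vegfa, Vegfb, Vegfc and Pgf, the receptors Kdr, Flt1 and Flt4, the co-receptors Nrp1 and Nrp2, and Angpt2, a ligand of the receptor Tie2. All 10 were in both tables and all 10 passed the filter on low counts. The groups, of 5 tumours each, were propafenone together with anti-PD-1 (the combination), anti-PD-1, propafenone, and control IgG. Propafenone is an antiarrhythmic sodium channel blocker, and anti-PD-1 is an antibody that blocks an inhibitory receptor of T cells. All mice carried the same wild-type line, agents were injected into the peritoneum once tumours had reached about 100 mm3, and tumours were removed on day 16. The sources used here do not give the age of the mice, the implantation site or, tumour by tumour, whether mice on propafenone alone also received IgG. Nor do they say that each tumour came from its own mouse, so p-values measure the spread between these tumours.

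VEGF-A, released by cells short of oxygen, binds the receptor VEGFR2 (gene Kdr) on endothelial cells and drives them to divide, migrate and sprout. VEGFR1 (gene Flt1) binds VEGF-A, VEGF-B and placental growth factor (gene Pgf), and acts in part as a trap for ligand. VEGF-C acts through VEGFR3 (gene Flt4), best known in lymphatic vessels, and the neuropilins Nrp1 and Nrp2 present ligands to these receptors. Angiopoietin 2 (gene Angpt2) is made by activated endothelium and loosens the contact of vessels with their pericytes. In melanomas the tumour cells are a usual source of VEGF-A, while the receptors sit mainly on the vessels. In bulk tumours, fewer cells of a type and less RNA per cell cannot be told apart.

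Vegfa lies on the minus strand of mouse chromosome 17 (GRCm38, chr17:46016993-46032369) with 13 annotated transcripts, 8 of them coding. Kdr lies on the minus strand of chromosome 5 (chr5:75932827-75978458). Pgf is at chr12:85166635-85177790 (minus strand) and Flt4 at chr11:49609263-49652739 (plus strand). The 250 bases before the RefSeq start of these genes (GRCm38.p6, chr17:46032378-46032627 and chr5:75978456-75978705) are shown because Vegfa and Kdr were the ligand and receptor that moved most strongly against each other between tumours. Capitals mark the core letters bound by hypoxia-inducible factors, ACGTG or GCGTG, searched on both strands. No 2 matches in the windows of the 10 genes overlapped.
Vegfa: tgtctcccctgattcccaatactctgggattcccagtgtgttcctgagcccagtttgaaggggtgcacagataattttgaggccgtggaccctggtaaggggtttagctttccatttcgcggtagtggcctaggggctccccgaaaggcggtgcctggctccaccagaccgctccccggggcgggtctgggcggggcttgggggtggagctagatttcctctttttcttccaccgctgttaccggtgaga
Kdr: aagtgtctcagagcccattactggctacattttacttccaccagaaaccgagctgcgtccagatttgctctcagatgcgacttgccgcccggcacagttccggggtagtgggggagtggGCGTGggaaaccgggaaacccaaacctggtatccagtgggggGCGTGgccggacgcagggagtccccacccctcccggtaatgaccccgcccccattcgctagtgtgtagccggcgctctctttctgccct
The Vegfa window held no match, and the Kdr window held 2 matches of GCGTG, at 131 and 89 bases before the start. Of 32851 RefSeq windows of this length 38.6% held at least 1 match and 16.7% held 2 or more. Promoter windows were matched for 9 of the 10 genes. Of the others, Vegfb and Nrp2 had 2 matches each, Flt1, Nrp1 and the first start of Pgf had 1 each, and Vegfc and Flt4 had 0. A second Vegfa start had 2 matches and a second Pgf start had 0. A match is a string of letters and no evidence of binding. Sequence outside these windows was not searched, so a window without a match does not show that the gene lacks such a site.

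Expected counts, estimated read counts per gene, summed to between 56 M and 64.5 M per tumour. Melanoma identity was checked against 10 melanocyte genes such as Tyrp1, Dct and Pmel: none was at 0 in any group, and they summed to between 14943 and 24408 CPM (counts scaled by the TMM-adjusted library total) per tumour. Some tumours stood apart. Skeletal muscle genes (18 of 18 measured) summed to 53.4 to 658 CPM in the combination, 12.9 to 364 CPM in anti-PD-1, 24.5 to 93.8 CPM in propafenone and 13.1 to 109 CPM in IgG tumours. Propafenone tumours 3 and 5 had the lowest summed endothelial levels, 434 and 424 CPM. Red blood cell genes were also uneven: their summed levels were 172 to 453 CPM in combination tumours, and 3378 to 11686 CPM in anti-PD-1 tumour 2, propafenone tumours 4 and 5 and IgG tumours 4 and 5.

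Per unit of transcript length, Vegfb, Vegfa and Nrp2 were the most abundant of the 10 genes in every group, and the signalling receptors were the scarcest. In combination tumours the means in TPM (a length-scaled share of all transcripts, n = 5) were 163 ± 11.8 (SD) for Vegfb, 128 ± 28.8 for Vegfa, 107 ± 11.9 for Nrp2, 31.4 ± 9.52 for Pgf and 29.6 ± 1.48 for Angpt2. There followed Nrp1 with 15.03 ± 1.66, Vegfc with 13.02 ± 1.21, Flt1 with 9.85 ± 0.760, Kdr with 8.43 ± 1.64 and Flt4 with 5.07 ± 0.517 TPM. In IgG tumours Vegfa led with 199 ± 45.3 TPM, before Vegfb with 150.4 ± 12.9, Nrp2 with 98.7 ± 7.21 and Pgf with 82.6 ± 19.1 TPM. At the low end of the IgG tumours stood Flt1 with 8.05 ± 0.707, Kdr with 5.38 ± 1.02 and Flt4 with 3.94 ± 0.367 TPM. The leading pair therefore had the opposite order of means in the combination and in IgG tumours. Vegfb was above Vegfa in 4 of 5 combination and 2 of 5 anti-PD-1 tumours, and Vegfa was above Vegfb in 4 of 5 propafenone and 4 of 5 IgG tumours. Pgf was above Angpt2 in 3 of 5 combination and 4 of 5 anti-PD-1 tumours, and in 5 of 5 propafenone and 5 of 5 IgG tumours. Nrp1 and Vegfc did not separate in IgG tumours, where Nrp1 was the higher in 2 of 5.

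**Figure D1:**
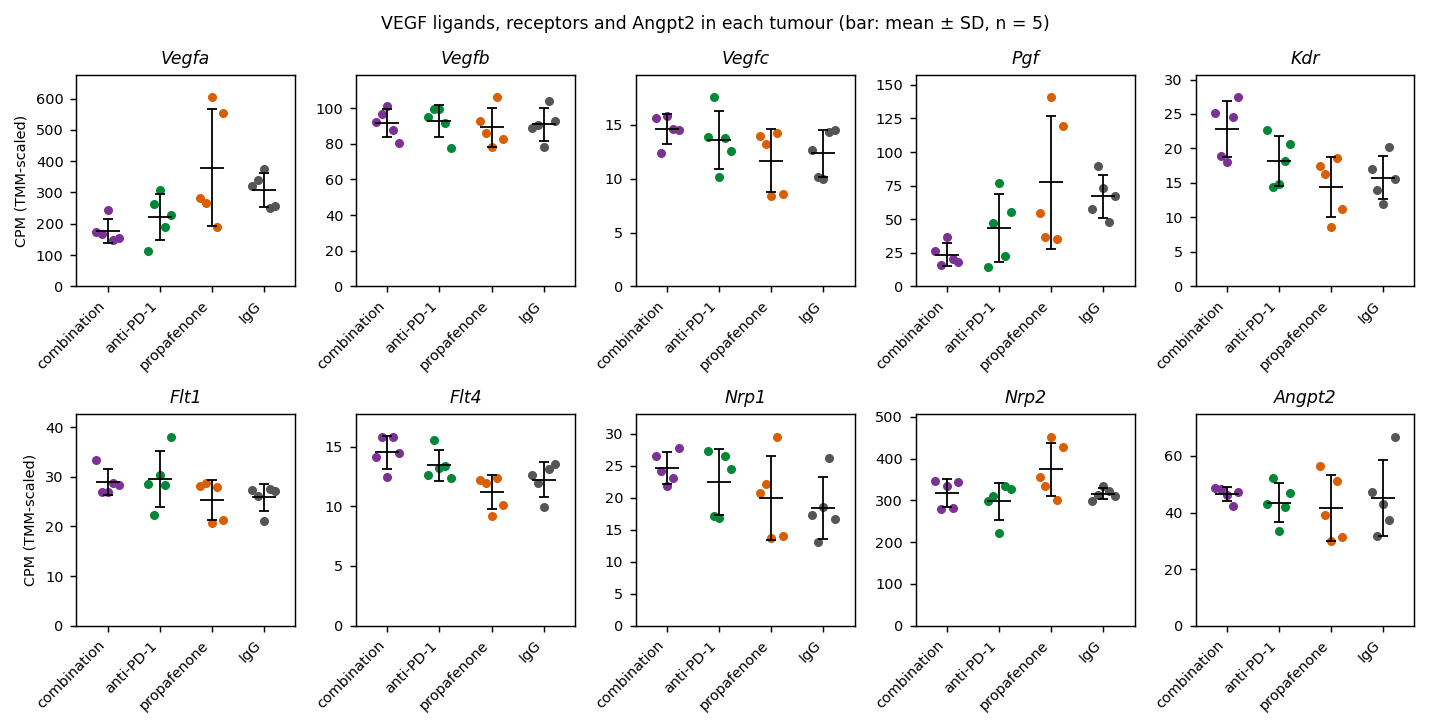
Level of each gene (vertical axes, CPM on TMM-scaled library totals) in each tumour (points), with the mean ± SD of the 5 tumours of each group (bars), for combination, anti-PD-1, propafenone and IgG tumours. Vegfa and Pgf of all 5 combination tumours lie under all 5 IgG tumours, and 2 propafenone tumours stand far above the rest of their group.

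Vegfa and Pgf were lower in combination tumours than in IgG tumours without overlap, but neither passed the test across all genes. Vegfa had 172, 167, 245, 147 and 154 CPM in the combination tumours, against 321, 340.3, 375, 249 and 257 CPM in the IgG tumours. The highest combination tumour, replicate 3, came within 5 CPM of the lowest IgG tumour, and the other 4 lay well below. The log2 fold change was -0.80 ± 0.291 (SE, 0.575 times; edgeR quasi-likelihood test, adjusted p = 0.106). Pgf, the placental ligand of Flt1, had 26.6, 15.9, 36.8, 20.6 and 17.9 CPM in the combination tumours, against 57.4, 89.8, 73.3, 47.9 and 67.5 CPM in the IgG tumours. Again replicate 3 was the highest combination tumour, and it stayed below the lowest IgG tumour. The log2 fold change was -1.51 ± 0.451 (0.351 times; adjusted p = 0.0591). DESeq2 called Pgf (adjusted p = 0.0168) and did not call Vegfa (adjusted p = 0.08), and with only these 2 groups in the fit edgeR called both (adjusted p = 0.00767 for Pgf and 0.0124 for Vegfa).

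The muscle genes also differed between these groups. Combination tumour 3, the highest in both ligands, was also the combination tumour with the least muscle RNA (53.4 CPM summed, the other 4 between 490 and 658). IgG tumour 2 went the other way, with the most muscle RNA (109 CPM summed) and the most Pgf (89.8 CPM) of its group. Combination tumour 3 also had the highest hypoxia gene score of its group (0.109, the other 4 between -0.341 and -0.235, as log2 difference from the mean of all tumours). Its summed fibroblast (1634 CPM) and macrophage (486 CPM) genes were the highest of its group too. Which of these goes with its ligand levels was not tested. With group means removed, the muscle score had a Pearson r of -0.391 with Vegfa and -0.343 with Pgf (n = 20). Among combination tumours only tumour 3 lay inside the IgG range of 13.1 to 109 CPM. Muscle and treatment can therefore hardly be told apart in the fit that follows. With the muscle score as a covariate the combination against IgG difference was -0.37 for Vegfa (adjusted p = 0.665) and -1.07 for Pgf (adjusted p = 0.391), on the log2 scale. No gene in the whole table was called in combination against IgG in that fit, while 862 were called in combination against propafenone. IgG tumours 4 and 5, rich in red blood cell RNA, were the lowest IgG tumours in Vegfa. Without the 5 tumours above 1000 CPM of the haemoglobin gene Hbb-bs the differences were -0.95 for Vegfa (adjusted p = 0.0789) and -1.63 for Pgf (adjusted p = 0.0809).

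Against propafenone alone, both ligands fell in combination tumours. Vegfa had 147 to 245 CPM in the combination tumours, against 283, 265, 604, 191 and 554 CPM in the propafenone tumours. Pgf had 15.9 to 36.8 CPM in the combination tumours, against 54.5, 36.8, 141, 35.3 and 119.7 CPM in the propafenone tumours. The log2 fold change of the combination over propafenone was -1.10 ± 0.292 for Vegfa (0.467 times; edgeR adjusted p = 0.0448) and -1.72 ± 0.453 for Pgf (0.304 times; adjusted p = 0.0448). The groups overlapped, since propafenone tumour 4 was below combination tumour 3 in both genes. Propafenone tumours 3 and 5 were high in both ligands, above every tumour of the other groups. Without these 2 tumours, an alternative chosen after the values were seen, the changes were -0.46 for Vegfa (adjusted p = 0.634) and -0.82 for Pgf (adjusted p = 0.623), and 1 gene of the whole table was called. With 1 tumour left out at a time, Vegfa was called in 5 and Pgf in 7 of 20 fits.

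The single agents gave intermediate or scattered values. Vegfa had 114, 264, 308, 190.4 and 228 CPM in anti-PD-1 tumours, a log2 fold change over IgG of -0.48 ± 0.290 (adjusted p = 0.759). Pgf had 14.2, 46.9, 77.0, 22.4 and 55.2 CPM in anti-PD-1 tumours, a log2 fold change over IgG of -0.64 ± 0.442 (adjusted p = 0.799). Anti-PD-1 tumour 1 had the lowest Vegfa and Pgf of all 20 tumours, while tumour 3 reached the IgG range in both. In propafenone against IgG tumours the log2 fold change was 0.30 ± 0.289 for Vegfa (adjusted p = 0.92) and 0.20 ± 0.440 for Pgf (adjusted p = 0.969), which turned to -0.32 and -0.67 without propafenone tumours 3 and 5. The combination over anti-PD-1 gave -0.32 ± 0.289 for Vegfa (adjusted p = 0.72) and -0.87 ± 0.446 for Pgf (adjusted p = 0.527).

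The amount of Pgf relative to Vegfa also varied. The ratio of Pgf TPM to Vegfa TPM was 0.186 to 0.293 in combination tumours (mean 0.245 ± 0.0422), 0.231 to 0.474 in anti-PD-1 tumours (0.353 ± 0.1199), 0.254 to 0.421 in propafenone tumours (0.351 ± 0.0619) and 0.341 to 0.522 in IgG tumours (0.420 ± 0.0804; SD, n = 5 each). The combination and IgG tumours did not overlap in this ratio, which is given as a description.

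Vegfb, a ligand of Flt1 with little action on vessel sprouting, was level across the study. Its group means were 91.6 ± 7.99 CPM in the combination, 92.8 ± 9.01 in anti-PD-1, 89.3 ± 10.9 in propafenone and 90.9 ± 9.14 CPM in IgG tumours (SD, n = 5 each). Its log2 fold changes in the 5 pairwise comparisons lay between -0.03 and 0.04, each with an SE of 0.0923. Vegfc, the ligand of Flt4, had 12.4 to 15.9 CPM in the combination, 10.1 to 17.6 in anti-PD-1, 8.40 to 14.2 in propafenone and 9.99 to 14.6 CPM in IgG tumours. Propafenone tumours 3 and 5 had the lowest Vegfc of the study, the same tumours that were highest in Vegfa. The log2 fold change of Vegfc was 0.24 ± 0.169 for the combination over IgG (adjusted p = 0.397) and 0.32 ± 0.169 over propafenone (adjusted p = 0.259), the second of which was 0.097 without propafenone tumours 3 and 5 (adjusted p = 0.946).

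Kdr, the main signalling receptor for VEGF-A, had the opposite tendency to Vegfa. It had 25.1, 18.8, 18.1, 24.6 and 27.4 CPM in combination tumours, against 17.0, 13.97, 11.9, 20.2 and 15.6 CPM in IgG tumours. In Kdr, 3 combination tumours were above every IgG tumour, and the 2 lowest lay inside the IgG range. For Kdr the log2 fold change was 0.54 ± 0.196 (1.45 times; adjusted p = 0.104). Kdr had 22.7, 14.3, 14.8, 18.1 and 20.7 CPM in anti-PD-1 tumours (log2 fold change over IgG 0.20 ± 0.196, adjusted p = 0.886) and 17.5, 16.3, 8.64, 18.6 and 11.2 CPM in propafenone tumours (-0.12 ± 0.196, adjusted p = 0.956). The lowest values of the study belonged to propafenone tumours 3 and 5. The combination over propafenone gave 0.66 ± 0.196 (adjusted p = 0.0568), and 0.40 without those 2 tumours (adjusted p = 0.559). With the muscle score as a covariate the combination over IgG difference of Kdr was 0.11 (adjusted p = 0.867).

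Flt4, the VEGF-C receptor, differed little between groups but had a small spread. It had 14.1, 15.8, 12.4, 15.8 and 14.4 CPM in combination tumours, against 12.2, 11.9, 9.23, 12.4 and 10.2 CPM in propafenone tumours. Every combination tumour was above every propafenone tumour, by as little as 0.03 CPM at the closest pair. This gave a log2 fold change of 0.38 ± 0.111 (1.30 times; adjusted p = 0.0545), and 0.27 without propafenone tumours 3 and 5 (adjusted p = 0.545). Against IgG tumours, which ranged from 9.91 to 13.6 CPM, the combination gave 0.25 ± 0.111 (adjusted p = 0.178). Flt1, the receptor for Vegfa, Vegfb and Pgf, had 27.0 to 33.4 CPM in combination tumours, 22.3 to 38.1 in anti-PD-1, 20.6 to 28.7 in propafenone and 21.1 to 27.6 CPM in IgG tumours. Its log2 fold change was 0.16 ± 0.127 for the combination over IgG (adjusted p = 0.462) and 0.19 ± 0.127 for anti-PD-1 over IgG (adjusted p = 0.781). Flt1 has 6 annotated transcripts, and the gene-level counts do not separate its soluble form from the receptor.

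The 2 neuropilins differed in level and in pattern. Nrp1 had 21.8 to 27.8 CPM in combination tumours, 16.8 to 27.4 in anti-PD-1, 13.6 to 29.6 in propafenone and 13.1 to 26.3 CPM in IgG tumours. Only IgG tumour 4 lay inside the combination range, and the log2 fold change of the combination over IgG was 0.43 ± 0.204 (adjusted p = 0.213). Nrp2 had 279 to 346 CPM in combination tumours, 222 to 334 in anti-PD-1, 299.9 to 453 in propafenone and 299 to 334 CPM in IgG tumours. It was highest in propafenone tumours 3 and 5, and the log2 fold change was 0.24 ± 0.112 for propafenone over IgG (adjusted p = 0.913) and -0.24 ± 0.112 for the combination over propafenone (adjusted p = 0.206). Without those 2 tumours the values were 0.068 (adjusted p = 0.928) and -0.039 (adjusted p = 0.975). The span of Nrp2 also holds Gm29083 on the opposite strand and Gm37121 on the same strand, with 0 exonic bases shared with Nrp2 in GENCODE, and an exon of Nrp1 holds the microRNA gene Mir1903 on the same strand. The strand setting of the counting was not given in the sources used here.

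Angpt2 had 42.4 to 48.6 CPM in combination tumours, 33.5 to 52.2 in anti-PD-1, 30.04 to 56.4 in propafenone and 31.8 to 66.9 CPM in IgG tumours. The combination tumours were close together (46.6 ± 2.49 CPM) and lay inside the wide IgG range (45.2 ± 13.4 CPM; SD, n = 5 each). Its log2 fold change was 0.04 ± 0.182 for the combination over IgG (adjusted p = 0.914) and 0.16 ± 0.182 over propafenone (adjusted p = 0.624). The gene lies within Mcph1 on the opposite strand, and the annotated exons of the pair share 0 bases.

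**Figure D2:**
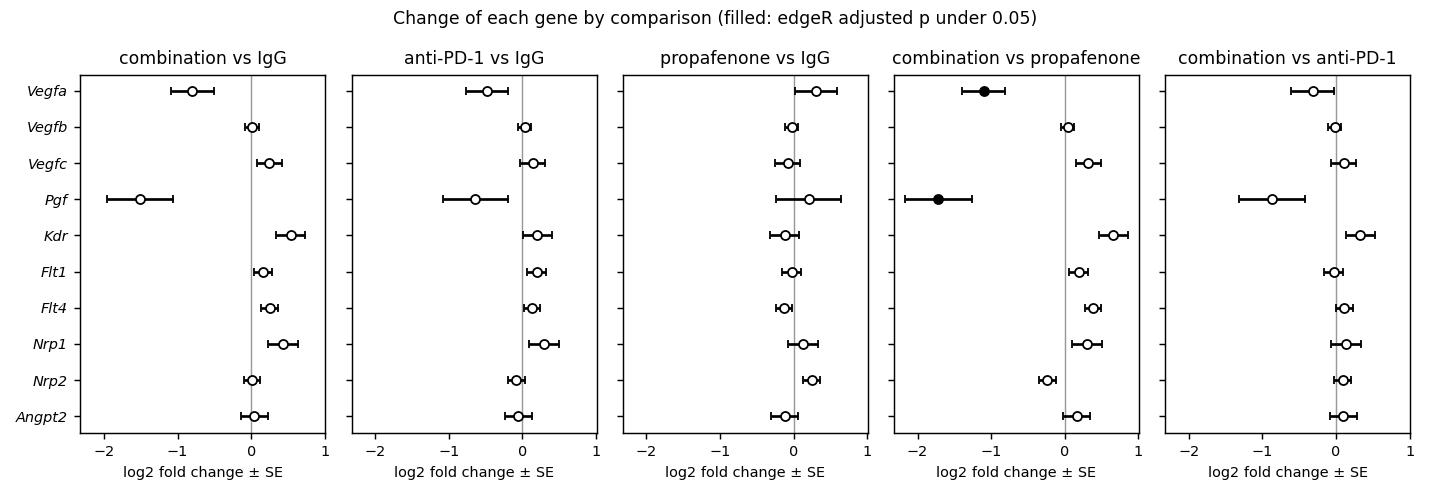
Log2 fold change ± SE (horizontal axis) of each of the 10 genes in 5 pairwise comparisons, with filled points for an edgeR adjusted p under 0.05. The filled points are Vegfa (-1.10) and Pgf (-1.72) in combination over propafenone tumours.

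Counted over the 10 genes, edgeR called 0 in the combination against IgG, where it called 4.88% of all genes tested, and 4 of the 10 had an unadjusted p under 0.05, where 23.6% of all genes did. DESeq2 called 1 of the 10 there, Pgf, beside 8.96% of all genes. In that comparison 2 of the 10 genes did not overlap between groups, both lower in the combination, beside 11.9% of all genes, 7.21% lower. Against propafenone 2 of 10 were called, both lower, beside 3.88% of all genes, 2.21% lower and 1.67% higher, and 1 of 10 did not overlap (Flt4), beside 8.52% of all genes, 3.65% higher. DESeq2 called 4 there (Vegfa, Pgf, Kdr and Flt4), beside 9.23% of all genes, and 5 of the 10 had an unadjusted edgeR p under 0.05, beside 23.2% of all genes. In propafenone against IgG, anti-PD-1 against IgG and the combination against anti-PD-1, edgeR called 0 of the 10, as of all genes (0%), with 1, 0 and 0 of the 10 at an unadjusted p under 0.05, beside 4.75%, 7.58% and 9.78% of all genes. None of the 10 was free of overlap in these comparisons, beside 1.23%, 0.951% and 2.37% of all genes in the order given. DESeq2 also called 0 of the 10 in these comparisons, beside 0.0189%, 0.132% and 0.0441% of all genes. The median log2 fold change of the 10 genes in the combination over IgG was 0.10, beside -0.01 for all genes. The interaction, the combination effect minus the sum of both single effects, was called in 0 genes (0%; 482 at an unadjusted p under 0.05) and in 0 of the 10 (0 at an unadjusted p under 0.05; DESeq2 0, beside 0.0126% of all genes). Its values were -1.08 ± 0.625 for Pgf, -0.62 ± 0.409 for Vegfa and 0.46 ± 0.276 for Kdr, with an adjusted p of 0.99 each. These comparisons share groups, so their values are not independent of each other.

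Around the 10 genes, 40 other genes of VEGF, angiopoietin, Notch, apelin and semaphorin signalling were listed, of which 39 were measured. In the combination against IgG, 4 were called higher and 0 lower, beside 2.24% and 2.63% of all genes, with a median log2 fold change of 0.21. They were Notch1, which restrains sprouting (0.89 ± 0.183, adjusted p = 0.0188), the apelin receptor Aplnr (1.65 ± 0.388, adjusted p = 0.0264), Tek, which encodes Tie2, the receptor of Angpt2 (1.72 ± 0.426, adjusted p = 0.0292), and Egr3, a transcription factor induced by VEGF in endothelial cells (1.03 ± 0.285, adjusted p = 0.0437). Tek averaged 2.37 ± 0.455 CPM in combination tumours and 0.719 ± 0.354 CPM in IgG tumours, without overlap. Aplnr averaged 6.33 ± 2.06 CPM in combination tumours and 2.01 ± 1.30 CPM in IgG tumours, with overlap. Against propafenone 3 of the 39 rose (Notch1, Aplnr and Tek), beside 1.67% of all genes. There 1 of the 39 fell, the Notch target Hey2 (-1.49 ± 0.286, adjusted p = 0.0219), beside 2.21% of all genes. The ligand Angpt1 had a log2 fold change of 0.07 ± 0.588 in the combination over IgG (adjusted p = 0.959). Without IgG tumour 3, 5 genes of the whole table were called in the combination against IgG, and without propafenone tumours 3 and 5, 1 gene against propafenone, which bears on every list below.

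Genes induced by hypoxia, the usual trigger of Vegfa, were lower in combination tumours. Of 32 listed, 10 fell and 0 rose against IgG, beside 2.63% and 2.24% of all genes, with a median log2 fold change of -0.39. The smallest p belonged to the mitophagy receptor Bnip3l (-0.64 ± 0.115, adjusted p = 0.0122), lactate dehydrogenase Ldha (-0.37 ± 0.0748, adjusted p = 0.0183) and the glycolytic enzyme Eno1 (-0.38 ± 0.0775, adjusted p = 0.0188). Bnip3l averaged 178 ± 25.1 CPM in combination tumours and 278 ± 27.8 CPM in IgG tumours, and the groups did not overlap. Against propafenone 5 of the 32 fell (Bnip3l, Pdk1, Bnip3, Ero1l and Hk2), beside 2.21% of all genes. In propafenone or anti-PD-1 against IgG 0 of the 32 were called, as of all genes (0%), with medians of -0.09 and -0.21.

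Endothelial genes, 21 that include none of the 10, were mostly higher in combination than in IgG tumours. A positive log2 fold change was found in 18 of 21, beside 48.2% of all genes, with a median of 0.36. Only Tek of the 21 was called, beside 2.24% of all genes called higher. Tek and Tie1 also belong to the list of other signalling genes above, so Tek is counted in both lists. Pecam1, which was not called (edgeR adjusted p = 0.13), averaged 45.3 ± 4.22 CPM in combination tumours and 33.1 ± 8.33 CPM in IgG tumours. Cldn5 (-0.82 ± 0.275, edgeR adjusted p = 0.0807), Vwf (-0.245 ± 0.257) and Eng (-0.156 ± 0.0903) went the other way. Against propafenone 4 rose (Tek, Pecam1, Icam2 and Cd34), beside 1.67% of all genes, with a median of 0.56. Summed over the list, levels were 560 to 671 CPM in combination, 534 to 707 in anti-PD-1, 424 to 605 in propafenone and 494 to 687 CPM in IgG tumours, so the groups overlapped. No endothelial gene was at 0 in any tumour. With the endothelium score as a covariate the combination over IgG differences were -0.46 for Vegfa (adjusted p = 0.42), -1.23 for Pgf (adjusted p = 0.222) and 0.30 for Kdr (adjusted p = 0.374). In the same fit the combination over propafenone differences were -0.39 for Vegfa, -1.07 for Pgf and 0.21 for Kdr, each with an adjusted p of 0.999. That fit called 31 genes of the whole table in combination against IgG and 0 against propafenone. Propafenone tumours 3 and 5 had the lowest endothelium scores of the study, so score and group are not cleanly separated in it.

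Markers of other cells moved with the combination too. The counts that follow stand beside 2.24% of all genes called higher and 2.63% called lower against IgG. Macrophage genes had 8 of 15 called higher against IgG (Lyz2 2.13 ± 0.460, Mrc1 1.72 ± 0.400 and Fcgr1 1.77 ± 0.429), and summed to 220.4 to 486 CPM in combination tumours, against 44.3 to 199.99 CPM in IgG tumours. Fibroblast genes had 5 of 11 called higher (Postn 1.495 ± 0.181, Lum 1.94 ± 0.364 and Fap 1.22 ± 0.285), and skeletal muscle genes 11 of 18 (Casq1 2.50 ± 0.361, Pvalb 5.38 ± 0.803 and Ldb3 3.81 ± 0.640). Among red blood cell genes Slc4a1, the anion exchanger of the red cell membrane, was called lower (-4.34 ± 1.10). None of 6 lymphatic genes was called (Pdpn 0.35 ± 0.158, adjusted p = 0.187; Lyve1 1.87 ± 0.901, adjusted p = 0.218), and none of 10 pericyte and smooth muscle genes (Des 1.01 ± 0.358, adjusted p = 0.0991; Kcnj8 -0.84 ± 0.303, adjusted p = 0.101). Neither were any of 10 melanocyte genes (Slc24a5 0.37 ± 0.130, adjusted p = 0.0979; Oca2 0.36 ± 0.135, adjusted p = 0.109), of 7 measured adipocyte genes (Plin4 3.03 ± 0.909, adjusted p = 0.0577; Adipoq 3.33 ± 1.02, adjusted p = 0.0611) or of 11 keratinocyte genes (Trp63 with adjusted p = 0.0924 and Krt15 with 0.0993, listed at 0 in 4 and 5 of 5 IgG tumours). The part of macrophages and fibroblasts in the values of the 10 genes was not tested.

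Set against the endothelial genes of the same tumour, none of the 3 receptors, Nrp1 or Angpt2 passed a test of the difference between combination and IgG tumours. Kdr lay 0.94 ± 0.335 log2 units above the mean of the 21 endothelial genes in combination tumours and 0.71 ± 0.178 above it in IgG tumours, a difference of 0.23 (two-sided exact permutation test over tumours, p = 0.214). The same difference was -0.15 for Flt1 (exact p = 0.151), -0.06 for Flt4 (exact p = 0.667), 0.15 for Nrp1 (exact p = 0.5) and -0.22 for Angpt2 (exact p = 0.294). These were 5 tests, and the smallest p that 5 against 5 tumours allow is 0.00794. The endothelial mean itself was 3.56 ± 0.189 log2 CPM in combination tumours and 3.25 ± 0.236 in IgG tumours. With group means removed, the endothelium score had a Pearson r of 0.501 with Flt4, 0.483 with Nrp1 and 0.534 with Angpt2 (n = 20). Without propafenone tumours 3 and 5 these were 0.143, 0.0596 and 0.203 (n = 18). Whether the endothelial list is a fit reference for each of the 5 genes was not tested.

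**Figure D3:**
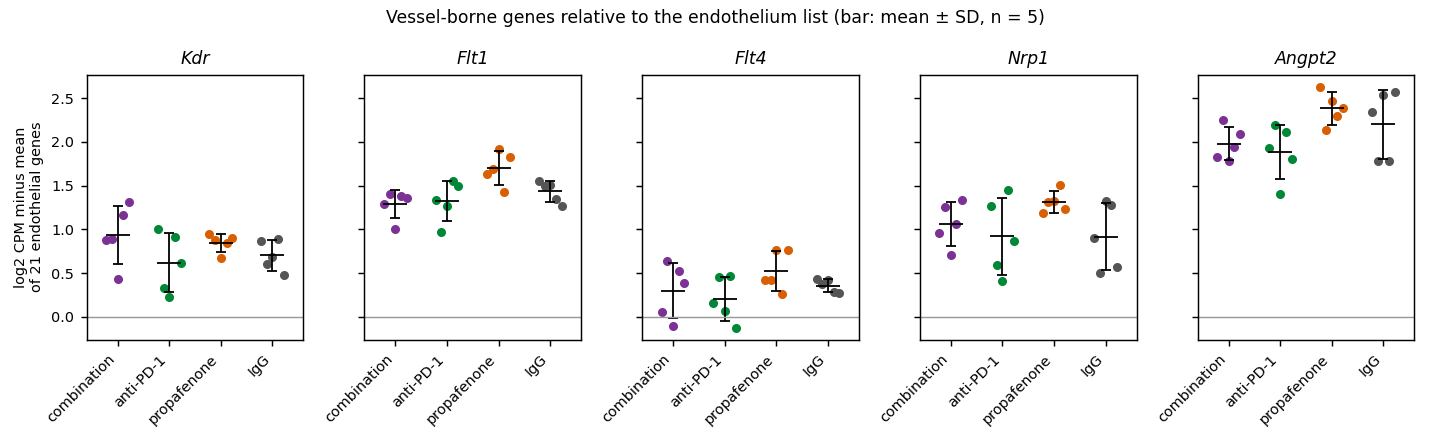
Log2 CPM of Kdr, Flt1, Flt4, Nrp1 and Angpt2 minus the mean log2 CPM of 21 endothelial genes (vertical axis) in each tumour (points), with the group mean ± SD (bars, n = 5), for combination, anti-PD-1, propafenone and IgG tumours. Combination and IgG tumours overlap in all 5 genes.

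Between tumours of the same group, Vegfa and Pgf went together and ran against Kdr and Nrp1. After group means were removed, log2 CPM of Vegfa and Pgf had a Pearson r of 0.917 over the 20 tumours (Spearman rho 0.898), and Pgf ranked 23rd among 12470 genes in likeness to Vegfa. Vegfa and Kdr had an r of -0.857 (rho -0.862), the 53rd lowest for Vegfa among those genes. Vegfa and Nrp1 had an r of -0.816, and Pgf had an r of -0.722 with Kdr and -0.794 with Nrp1. Within the receptors, Kdr had an r of 0.813 with Nrp1 and 0.743 with Flt1, and Vegfc had an r of 0.737 with Angpt2. Without propafenone tumours 3 and 5 the values over 18 tumours were 0.867 for Vegfa with Pgf, -0.745 for Vegfa with Kdr, -0.687 for Vegfa with Nrp1, -0.538 for Pgf with Kdr, -0.672 for Pgf with Nrp1, 0.704 for Kdr with Nrp1, 0.603 for Kdr with Flt1 and 0.581 for Vegfc with Angpt2. Some other pairs were weakly related, such as Vegfb with Flt1 (0.108) and Nrp1 with Nrp2 (-0.164) over the 20 tumours. Others were more closely related, such as Vegfc with Flt4 (0.658), Vegfc with Kdr (0.636) and Vegfa with Vegfc (-0.634). For these pairs the values without propafenone tumours 3 and 5 were not computed. These correlations are descriptions: the tumours differ in cell makeup, which all genes of a library share.

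**Figure D4:**
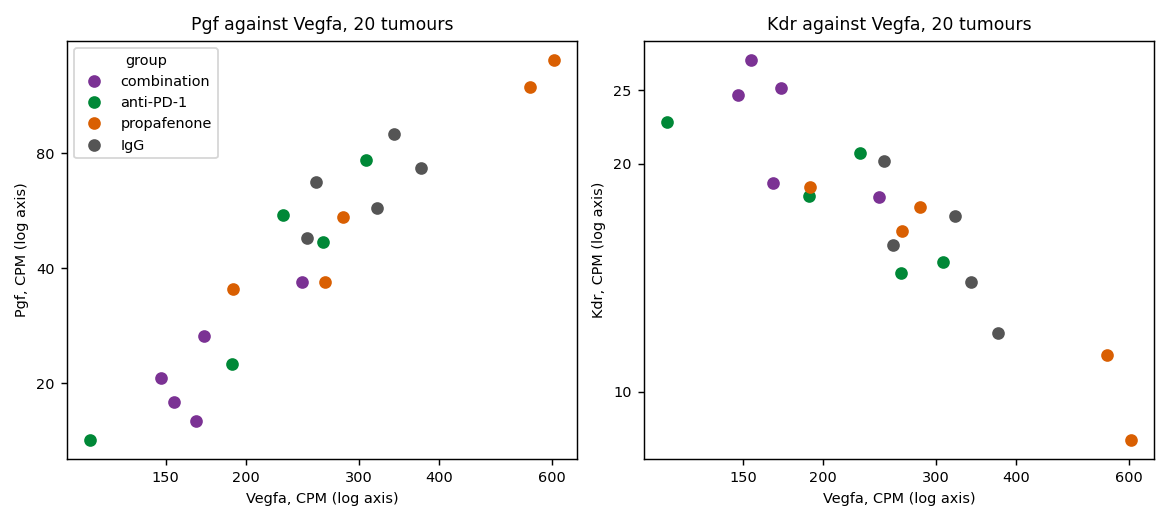
Pgf (left, vertical axis) and Kdr (right, vertical axis) against Vegfa (horizontal axes) in each of 20 tumours (points, coloured by group), all in CPM on log axes. Pgf follows Vegfa (r = 0.917 within groups) and Kdr runs against it (r = -0.857), and propafenone tumours 3 and 5 mark the high end of Vegfa.

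The hypoxia score, the mean of the 32 hypoxia genes, followed the ligands across the same tumours. Its r within groups was 0.877 with Vegfa, 0.874 with Pgf, -0.753 with Kdr and -0.641 with Nrp1 (n = 20), and 0.84, 0.823, -0.648 and -0.477 without propafenone tumours 3 and 5 (n = 18). The endothelium score had an r of 0.746 with Flt1, 0.689 with Vegfc, 0.659 with Kdr and -0.519 with Vegfa. Without those 2 tumours it had 0.59 with Flt1, 0.384 with Vegfc, 0.315 with Kdr and -0.01 with Vegfa, so the relation of Vegfa with this score rests on them. The pericyte and smooth muscle score had its highest r with Angpt2 (0.807), and the melanocyte score with Vegfc (0.846), which were 0.758 and 0.864 without those 2 tumours. Vegfa and Pgf ran against the melanocyte score (-0.652 and -0.537, and -0.584 and -0.417 without those 2 tumours).

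**Figure D5:**
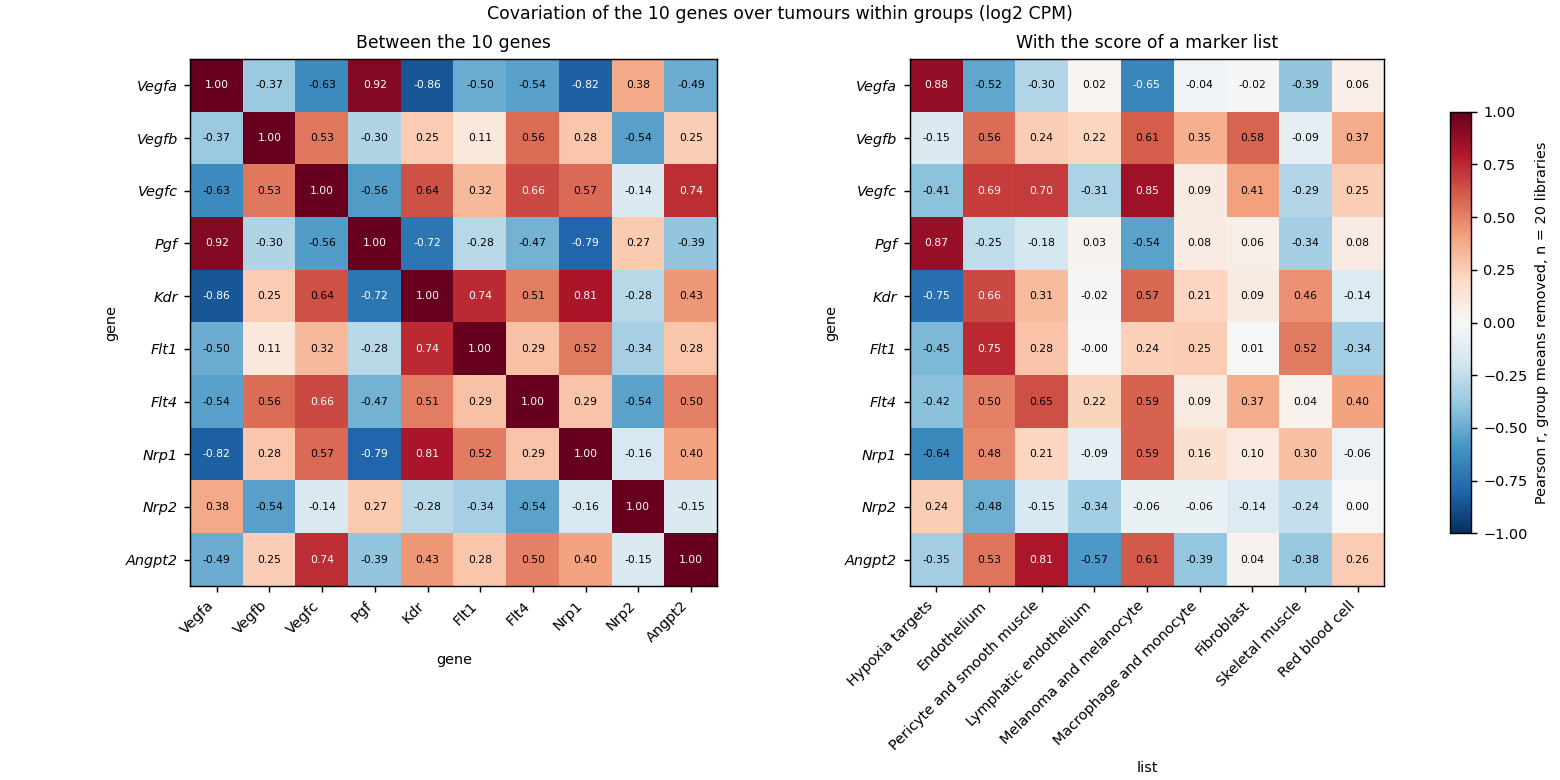
Pearson r over 20 tumours of log2 CPM with group means removed (colour and printed value), between the 10 genes (left) and between each gene and the score of a marker list (right). Vegfa and Pgf go together (0.92) and with the hypoxia score (0.88 and 0.87), and both run against Kdr (-0.86 and -0.72).

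The genes whose pattern was most like each of the 10, among 12470 genes averaging at least 1 CPM, were named by Pearson r over the 20 tumours with group means removed, propafenone tumours 3 and 5 included. For Vegfa they were Rnf19a (0.952), F3, which encodes tissue factor (0.944), and Sema6b (0.943). For Pgf they were Pkp2 (0.964), Slc41a2 (0.962) and Srxn1 (0.961). Kdr was most like Zfp72 (0.913), the semaphorin co-receptor Plxna2 (0.867) and Kitl, the ligand of the receptor Kit (0.864). Flt1 was most like Fzd4, a Wnt receptor (0.893), Usp27x (0.857) and Abcb1b (0.828). The leading genes were Ybx3 for Flt4 (0.878), Kidins220 for Nrp1 (0.908), Mkln1 for Nrp2 (0.884), Actn1 for Angpt2 (0.885), Pdpn for Vegfb (0.897) and Cdkn2c for Vegfc (0.923).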

How the data were processed

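Bulk RNA sequencing of 20 tumours was analysed, 5 in each of 4 groups named by the labels' treatment entries. Per the labels' protocols the kit was SMARTER mRNA. HISAT2 2.2.1, SAMtools 1.9 and FastQC, with mm10 and GRCm38 as builds, are named in the notes on processing left by the submitters. How reads were counted, by which annotation and with which strand setting, is not given in the sources used here. The deposited table of expected counts holds estimated read counts per gene as whole numbers, not normalized by the authors. The deposited TPM table holds length-scaled values made by the authors, used here for levels between genes and as an alternative. Among low counts 4 and 8 are over-represented, and how many counts stand for 1 fragment is unknown.

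Counts, taken as whole numbers, entered edgeR 4.0.16 under R 4.3.3 (TMM, filterByExpr, robust quasi-likelihood fit, 1 mean per group, 16 residual degrees of freedom) on 15875 genes that held 99.98% of the counts. A gene was called at a Benjamini-Hochberg adjusted p under 0.05 over all genes tested, and standard errors are the fold change over the square root of F. Log2 CPM values carry edgeR's prior count of 2, and a list score is the mean log2 CPM over its genes. DESeq2 1.42.0 and limma 3.58.1 were alternatives. Within groups no library was a copy of another (lowest chi-square per degree of freedom 4.2 over 40 pairs, on counts divided by 4). Coordinates come from GENCODE on GRCm38 and promoter windows from RefSeq on GRCm38.p6.

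The 10 genes, the gene lists and the tests were chosen with earlier results of these data known. All 10 are named in each comparison. From each list up to 3 called genes with the smallest p per direction are named in the combination against IgG, or where none was called the 2 with the smallest p. Egr3, Hey2, Angpt1, Pecam1, Cldn5, Vwf and Eng, and the genes named against propafenone, were named after their values were seen. For each of the 10 the 3 most similar genes were computed. A gene of the red blood cell list is not reported here.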

Additional observations from a re-analysis of the deposited data

Results flagged for a closer look

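Among 40 sets of 5 tumours (10 genes in 4 groups), 3 held a tumour whose gap to its nearest neighbour was more than 0.71 of the range of its group, and chance gives about 1 in 20. Combination tumour 3 had 245 CPM of Vegfa, with the next at 172 CPM (gap 0.746 of the range). That tumour also had the least muscle RNA and the highest hypoxia, fibroblast and macrophage scores of its group. Combination tumour 1 had 33.4 CPM of Flt1, with the next at 28.7 CPM (gap 0.724 of the range). IgG tumour 3 had 21.1 CPM of Flt1, with the next at 26.1 CPM (gap 0.759 of the range), and also the lowest Kdr and endothelium score of its group. The interaction was tested for 10 genes and passed in none (edgeR; 0 at an unadjusted p under 0.05; DESeq2 called 0).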

How the results depend on the processing

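The called counts depended on the processing. Of the 10 genes, 0 were called in combination against IgG, but 1 (Pgf) with DESeq2, voom and both limma fits on TPM, and 3 (Vegfa, Pgf and Kdr) with only these groups in the fit or with the replicate block. Against propafenone, where 2 were called, 4 (with Kdr and Flt4) were called with DESeq2, voom, counts divided by 4 and the replicate block, 1 with library totals or only these groups (Flt4) and without the 5 tumours above 1000 CPM of Hbb-bs (Vegfa), and 0 with DESeq2 size factors, no filter, both TPM fits, either score as covariate, and without propafenone tumours 3 and 5, the alternative added after the data were seen. Leaving out each tumour in turn gave 0 to 1 called against IgG (Pgf without anti-PD-1 tumour 1) and 0 to 4 against propafenone, with 0 without any 1 combination tumour, IgG tumour 1, 4 or 5, anti-PD-1 tumour 5, or propafenone tumour 1, 3 or 5. Equal tumour numbers are not stated to pair the samples. The deviations of the 30 pairs of tumours that share a number correlated by -0.00694 on average (-0.41 to 0.369). Of the 20 tumours 7 correlated best with their own number, and these values cannot settle whether numbers pair tumours. The other comparisons kept 0 of the 10 called in all alternatives.

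Over all genes, combination against IgG had 774 calls (356 higher, 418 lower), 480 with library totals (368 higher, 112 lower), 523 with DESeq2 size factors (306 higher, 217 lower), 463 without filter, 1423 with DESeq2, 980 with voom, 1053 on log2(TPM + 1) (913 higher, 140 lower), 1786 with only these groups, 829 with the block, 31 with the endothelium score and 0 with the muscle score (single tumours left out, 5 to 1067). On log2(TPM + 0.1) it had 914 (779 higher, 135 lower) with a median of all genes of 0.102, so changes there are relative to that shift. Against propafenone 616 calls became 347 with library totals (258 higher, 89 lower), 438 with DESeq2 size factors (231 higher, 207 lower), 335 without filter, 1466 with DESeq2, 937 with voom, 775 on log2(TPM + 1) (638 higher, 137 lower), 1069 with only these groups, 1142 without the Hbb-bs tumours, 0 with the endothelium score and 1 without propafenone tumours 3 and 5 (single tumours left out, 4 without propafenone 3 to 1882 without propafenone 4). With the muscle score the calls against propafenone were 862 (356 higher, 506 lower).

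Of 790 recomputed fold changes of single genes 66 turned their sign, none of them called in either fit, and of 1200 with a tumour left out 52 did. With library totals only, turned log2 values were Vegfb 0.0039 and Flt1 0.0046 in propafenone against IgG, Vegfb 0.041 and Flt1 0.020 in combination against anti-PD-1, Flt1 0.015 in the interaction. With DESeq2 size factors in edgeR, turned log2 values were Flt1 0.0021 in the interaction. With DESeq2, turned log2 values were Flt1 0.0020 in the interaction. With limma voom, turned log2 values were Pgf -0.012 in propafenone against IgG, Flt1 0.010 in the interaction. With limma on log2(TPM + 1), turned log2 values were Vegfb 0.048, Pgf -0.0038 and Flt1 0.033 in propafenone against IgG, Vegfb 0.080 and Flt1 0.088 in combination against anti-PD-1, Flt1 0.055 in the interaction. With limma on log2(TPM + 0.1), turned log2 values were Vegfb 0.048, Pgf -0.0058 and Flt1 0.035 in propafenone against IgG, Vegfb 0.080 and Flt1 0.10 in combination against anti-PD-1, Flt1 0.065 in the interaction. With the muscle score as covariate, turned log2 values were Flt1 -0.13 in combination against IgG, Vegfc 0.016, Nrp1 -0.018 and Angpt2 0.029 in propafenone against IgG, Kdr -0.075 and Angpt2 0.17 in anti-PD-1 against IgG, Flt1 0.013 in the interaction. With the endothelium score as covariate, turned log2 values were Vegfb -0.084, Flt1 -0.014 and Angpt2 -0.15 in combination against IgG, Vegfb -0.15, Vegfc -0.090, Flt1 -0.15, Nrp1 -0.033 and Angpt2 -0.19 in combination against propafenone, Vegfa -0.078, Vegfb 0.066, Vegfc 0.12, Pgf -0.16, Kdr 0.087, Flt1 0.14 and Angpt2 0.048 in propafenone against IgG, Vegfb -0.057, Vegfc -0.046, Kdr -0.018 and Nrp2 0.011 in anti-PD-1 against IgG, Vegfb -0.093, Vegfc -0.044 and Nrp1 -0.15 in the interaction. Without the 5 tumours above 1000 CPM of Hbb-bs, turned log2 values were Vegfb 0.0029, Vegfc 0.12, Flt1 0.060 and Angpt2 0.044 in propafenone against IgG, Angpt2 0.026 in anti-PD-1 against IgG, Vegfb 0.019 in combination against anti-PD-1, Nrp1 -0.14 in the interaction. Without propafenone tumours 3 and 5, turned log2 values were Vegfb -0.038 and Angpt2 -0.050 in combination against propafenone, Vegfa -0.32, Vegfb 0.071, Vegfc 0.17, Pgf -0.67, Kdr 0.15, Flt1 0.14 and Angpt2 0.12 in propafenone against IgG. Leaving out each tumour in turn, the ranges of those that turned were Nrp2 -0.025 to 0.054, Vegfb -0.034 to 0.090 and Angpt2 -0.059 to 0.25 in combination against IgG, Vegfb -0.096 to 0.038, Flt1 -0.091 to 0.045, Angpt2 -0.24 to 0.069, Vegfc -0.16 to 0.025, Pgf -0.12 to 0.39, Kdr -0.23 to 0.018 and Nrp1 -0.062 to 0.30 in propafenone against IgG, Vegfb -0.020 to 0.10, Angpt2 -0.16 to 0.14 and Nrp2 -0.13 to 0.019 in anti-PD-1 against IgG, Vegfb -0.070 to 0.025 and Flt1 -0.12 to 0.081 in combination against anti-PD-1, Nrp1 -0.16 to 0.20, Vegfb -0.052 to 0.081 and Flt1 -0.10 to 0.11 in the interaction, with Flt4 relative to endothelium -0.14 to 0.043 in combination against IgG. The causes of these turns were not tested. Vegfa, Pgf and Kdr kept their direction in both combination comparisons above in every alternative. With 5 tumours a group the spread limits the comparisons, and how many counts stand for 1 fragment is unknown.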
